A study of Mus musculus with 12 samples.

Results

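The comparison concerned the effect of genotype in kidneys that had no operation: 3 libraries labelled WT against 3 labelled Tet2-/-, which are 6 of the 12 libraries of the series. The members were the samples labelled Healthy control, taken by the WT1 to WT3 and KO1 to KO3 columns of the deposited count table, 1 library a mouse. All 6 mice were males of 6 weeks, their strain labelled C57BL/6, and none received an agent or surgery. The other 6 libraries came from kidneys after 60 min of ischemia and enter 1 alternative fit and the choice of 1 transcript a gene, which was made on the totals of all 12. Mice of both genotypes descended from Tet2+/- breeding pairs on a C57BL/6J background through half-sib mating. The deletion was therefore inherited through the germline and was carried by the tubules, vessels, blood cells and every other cell of the kidney alike, so a difference cannot be placed in 1 cell type by the model itself. RNA was taken from whole kidney tissue, and each library summed all of its cell types. The question was which gene groups and which parts of the nephron differed between the genotypes before any injury.

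Total counts ran from 52881804.5 to 107969888 a library, the lowest and the highest both in the group labelled Tet2-/-. Tet2 itself, an enzyme that oxidises 5-methylcytosine and so starts the removal of DNA methylation, was measured at 9.15, 6.25 and 7.33 FPKM (reads scaled for transcript length and sequencing depth) in WT 1, 2 and 3 and at 9.24, 16.6 and 10.3 FPKM in Tet2-/- 1, 2 and 3. Its transcript was thus not lower in any library labelled Tet2-/- (log2 fold change 0.76, SE 0.24, adjusted p = 0.321 in edgeR's quasi-likelihood test with Benjamini-Hochberg adjustment, the test used for all adjusted p values below unless DESeq2 is named). The transcript level therefore does not check the genotype labels, and "Tet2-/-" below means the libraries so labelled. Kidney markers were abundant in all 6: Slc34a1, the sodium-phosphate cotransporter of the proximal tubule, was at 1477, 1541 and 1370 FPKM in WT and 1338, 1302 and 1811 FPKM in Tet2-/- libraries. Cyp11b1, Prm1 and Tnp1, which define adrenal cortex and spermatids, were listed at 0 in all 6 libraries, and Th of the adrenal medulla, Myh4 of skeletal muscle and Prss2 of the pancreas reached at most 0.012 FPKM. Of the genes of adjoining tissues that were tested, 1 of 7 of skeletal muscle (Tnni2, at 0.277, 0.307 and 0.308 FPKM in WT and 0.071, 0.131 and 0.064 FPKM in Tet2-/- libraries), 1 of 6 of liver (Serpina1e, at 0.363, 1.37 and 0.332 FPKM against 0.044, 0.053 and 0.066 FPKM) and the single gene of the testis list (Cldn11, described below) were lower without overlap, as were 5 of 8 of peripheral nerve and 2 each of the adipocyte and brown fat lists, also described below, and Tnni2 and Serpina1e are named after their values were seen. The skeletal muscle list summed to 10.9, 26.002 and 50.6 FPKM in WT and 13.996, 31.2 and 28.2 FPKM in Tet2-/- libraries, highest in WT 3, and its part in the results was not tested.

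Of 24421 gene symbols, 16086 had counts high enough to be tested. edgeR called 2 genes higher in Tet2-/- kidneys (0.0124% of the genes tested), Rpl34 and Rpl34-ps1, and 0 lower (0.0%), where a call needs a log2 fold change beyond 1 in size as well as an adjusted p under 0.05. DESeq2 with the same limits called 23 higher (0.143%) and 297 lower (1.85%). An unadjusted p under 0.05 in edgeR was reached by 572 genes in the higher direction (3.56%) and 1319 in the lower direction (8.2%). Higher genes made up 30.2% of both, and this split moved with the scaling and with the libraries. Scaling by the upper quartile gave 30.9%, library sizes alone 12% and a trend on transcript length taken out 56.1%. Other sets of libraries gave 46.6% without WT 2 and 18.6% with all 12, and an adipocyte level as a covariate gave 35.1%. On normalized counts, all 3 Tet2-/- libraries lay above all 3 WT libraries in 1275 genes (7.93%) and below them in 1737 genes (10.8%). With an adipocyte level as a covariate the shares at an unadjusted p under 0.05 were 1.31% higher and 2.42% lower. That level was highest in WT 2 and WT 3, so it partly follows genotype, and with so few libraries the added term costs power. At such shares a short list would often hold 0 genes. A count of 0 under this covariate below therefore does not show what the fat signal accounts for. With the length trend taken out the shares at an unadjusted p under 0.05 were 6.98% and 5.46%, and those without overlap 13.3% and 6.78%. These shares are the background for each gene group below, each for counts of its own fit, and the median log2 fold change of all genes tested was 0.00. Because edgeR's adjusted p passed for no gene other than Rpl34 and its copy, differences below are given as values and counts, and none of them is a call by that test. With 3 libraries against 3, an exact permutation test of a single gene cannot go below p = 0.1, so none was used.

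The kidney filters blood in the glomerulus, whose podocytes and capillaries form the filter, and the filtrate passes the proximal tubule (segments S1 to S3), the loop of Henle, the distal tubule and the collecting duct. The collecting ducts open at the papilla into the renal pelvis, which is lined by urothelium, a layered epithelium with a basal layer marked by keratin 5 and a surface layer covered by plaques of uroplakin proteins. Fat tissue, part of it brown, lies around the kidney and in its hilum, so a whole kidney can carry some of each. Genes of each of these parts were followed as lists, and each list is described by its counts and its median beside the background above. With 1 library left out at a time, the median changed sign in 31 of 66 lists.

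The urothelial genes stood lowest among the cell types of the kidney and pelvis. All 12 urothelial genes had lower means in Tet2-/- kidneys, with log2 fold changes from −4.25 to −1.61 and a median of −2.48. In 11 of the 12 the genotypes did not overlap, and 11 of 12 reached an unadjusted p under 0.05, where 10.8% and 8.2% of all genes did so in that direction. DESeq2 called 9 of the 12. In bulk tissue, fewer cells of a type and less RNA per cell cannot be told apart, and this holds for every cell type below.

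The promoters of 3 of these genes are printed here with their CG dinucleotides, the sites at which TET enzymes act once methylated. The 3 were chosen by name, promoters of the other urothelial genes are not shown, and the 3 do not describe the list. The sequences are RefSeq's on GRCm38.p6, 250 bases before to 50 bases after the start, each in the direction of its gene with CG in capitals. CG reads the same on both strands. Upk1a (chr7:30612685-30612984, minus strand) held 0 CG, and 0.906% of the 12471 promoters in the table, which cover 77.5% of the genes tested, had as few. Upk3a (chr15:85016891-85017190, plus strand) held 9, and 24.8% had as few. Krt5 (chr15:101712856-101713155, minus strand) held 6, and 17.9% had as few. The median promoter held 19. Methylation was not measured in these data, so the letters describe the genes and bear on no cause.
Upk1a: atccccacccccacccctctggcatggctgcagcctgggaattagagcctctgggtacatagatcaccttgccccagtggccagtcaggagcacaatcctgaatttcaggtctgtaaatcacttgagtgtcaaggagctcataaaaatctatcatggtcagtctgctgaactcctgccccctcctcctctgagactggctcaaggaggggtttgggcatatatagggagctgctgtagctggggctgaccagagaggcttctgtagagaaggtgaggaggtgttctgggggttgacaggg
Upk3a: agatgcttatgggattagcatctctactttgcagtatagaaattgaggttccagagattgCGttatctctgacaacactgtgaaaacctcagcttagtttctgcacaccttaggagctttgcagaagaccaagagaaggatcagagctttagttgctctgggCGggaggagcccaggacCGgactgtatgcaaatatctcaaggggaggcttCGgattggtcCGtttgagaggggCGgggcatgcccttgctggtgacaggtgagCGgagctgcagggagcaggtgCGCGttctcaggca
Krt5: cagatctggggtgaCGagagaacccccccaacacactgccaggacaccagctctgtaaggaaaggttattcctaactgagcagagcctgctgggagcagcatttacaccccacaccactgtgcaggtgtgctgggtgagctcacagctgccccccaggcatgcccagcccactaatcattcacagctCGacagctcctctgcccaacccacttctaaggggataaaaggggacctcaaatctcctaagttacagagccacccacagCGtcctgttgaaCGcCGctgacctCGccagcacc

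Upk1a, a plaque protein of the surface cells, was measured at 5.36, 12.5 and 11.5 FPKM in WT 1, 2 and 3 and 2.39, 0.987 and 1.76 FPKM in Tet2-/- 1, 2 and 3 (log2 fold change −2.44, SE 0.42, adjusted p = 0.206). Upk1b, a related tetraspanin, had 3.53, 7.65 and 7.003 FPKM in WT and 1.802, 0.272 and 0.559 FPKM in Tet2-/- kidneys (log2 fold change −2.73, SE 0.67, adjusted p = 0.242). Upk3a, which pairs with Upk1b in the plaque, had 4.73, 10.2 and 8.56 FPKM against 2.83, 0.269 and 0.851 FPKM (log2 fold change −2.52, SE 0.76, adjusted p = 0.308). In all 3 uroplakins WT 2 and WT 3 were the highest, WT 1 stood between, Tet2-/- 1 was the highest of its group, and the groups did not overlap. Among the keratins, Krt5 of the basal layer was at 1.57, 5.63 and 3.75 FPKM in WT and 0.649, 0.129 and 0.266 FPKM in Tet2-/- libraries (log2 fold change −3.35, SE 0.68, adjusted p = 0.212). Krt15, also basal, was at 2.37, 1.78 and 3.33 FPKM against 0.648, 0.147 and 0.646 FPKM (log2 fold change −2.30, SE 0.55). Krt20 of the surface umbrella cells was at 0.247, 1.37 and 1.01 FPKM against 0.038, 0.067 and 0.028 FPKM (log2 fold change −4.09, SE 0.70). Basal and surface markers therefore lay on the same side. Ivl, involucrin of layered epithelia, had the lowest ratio of the list, with 0.392, 2.202 and 1.36 FPKM against 0.16, 0.01 and 0.044 FPKM (log2 fold change −4.25, SE 0.96). The gene whose groups overlapped was Psca, a surface antigen of urothelium, named here after its values were seen, at 22.1, 83.3 and 37.01 FPKM in WT and 27.8, 4.18 and 3.58 FPKM in Tet2-/- kidneys, where Tet2-/- 1 stood above WT 1.

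**Figure D1:**
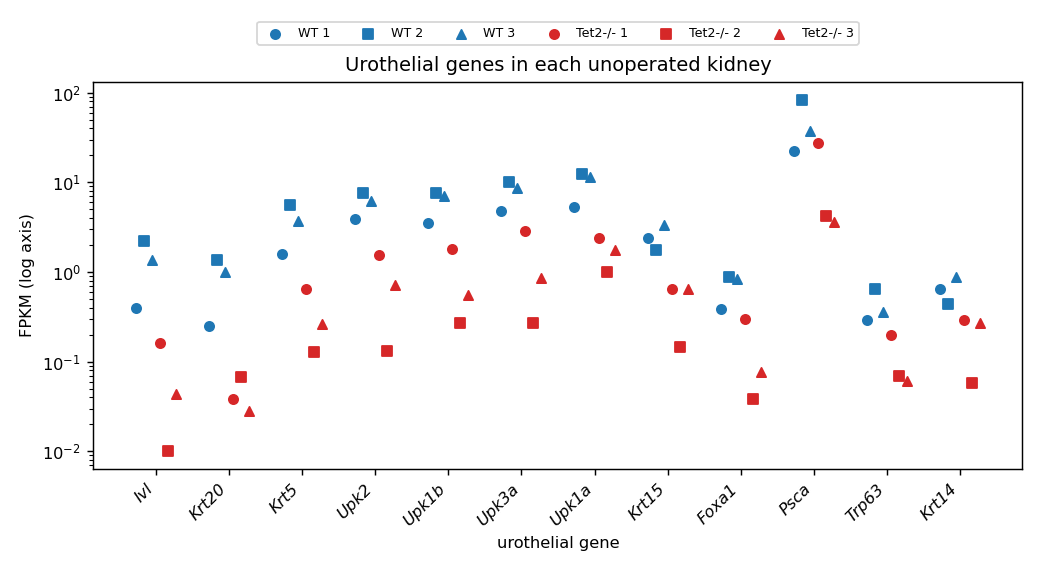
FPKM on a log axis for the 12 urothelial genes, ordered by log2 fold change, with WT 1 to 3 in blue and Tet2-/- 1 to 3 in red and 1 point a library. Blue points lie above red points in every gene but Psca, and Tet2-/- 1 is the highest red point in most genes.

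WT 2 and WT 3 also carried the adipose signal described below, so the urothelial genes were read without it. WT 1, which lacked that signal, was above all 3 Tet2-/- libraries in 11 of the 12 urothelial genes, against 29.7% of all genes. With WT 2 and WT 3 left out, the median log2 fold change of the list was −1.86. With the level of the adipocyte genes as a covariate it was −1.69, and 6 of 12 genes, beside 2.42% of all genes, were lower at an unadjusted p under 0.05. Tet2-/- 1 was nearest to WT: the mean level of the list, as log2(FPKM + 0.1), was 0.81, 1.93 and 1.71 in WT 1, 2 and 3 and −0.06, −1.73 and −1.03 in Tet2-/- 1, 2 and 3. Without Tet2-/- 1 the median was −3.61. How much of the pelvis was taken with each kidney is not given in the sources used here and its part in the difference was not tested.

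**Figure D2:**
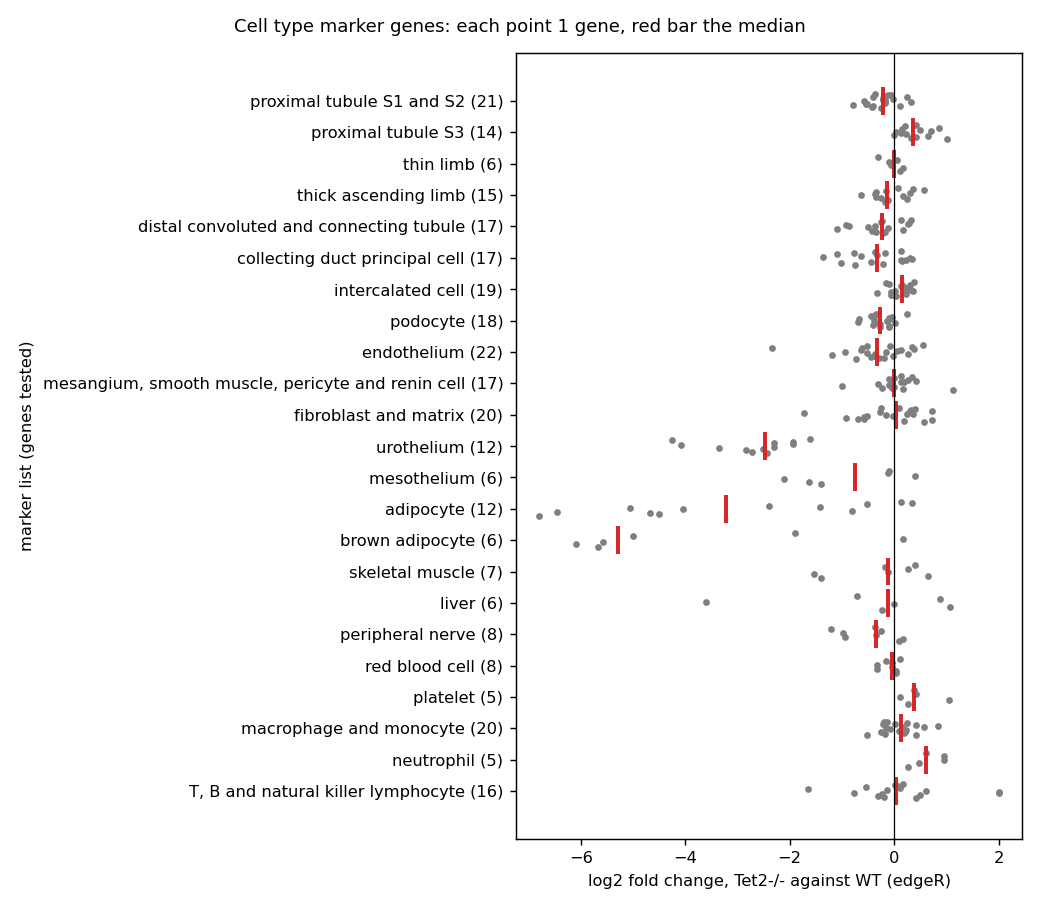
Log2 fold change (Tet2-/- against WT, edgeR) of each marker gene, 1 grey point a gene, by list with the number of genes tested in brackets and the median as a red bar. The urothelial list lies wholly left of 0 with a median of −2.48, the fat lists spread furthest left, and the S3 list lies right of 0 with a median of 0.36.

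Among the nephron segments, the principal cells of the collecting duct had a median of −0.33 over 17 genes. None was higher by either count, 3 were lower without overlap and 5 had an unadjusted p under 0.05. Nr3c2, the mineralocorticoid receptor through which aldosterone acts, was at 1.23, 0.963 and 1.86 FPKM in WT and 0.709, 0.492 and 0.592 FPKM in Tet2-/- kidneys (log2 fold change −1.09, SE 0.29, adjusted p = 0.257), with every Tet2-/- library below every WT library. Aqp3, the water channel of the basolateral membrane, was at 72.5, 68.3 and 71.5 FPKM against 64.6, 53.2 and 54.1 FPKM (log2 fold change −0.22, SE 0.11), also without overlap but by a smaller step. Npnt, nephronectin of the basement membrane, was at 23.2, 31.3 and 28.4 FPKM against 20.1, 21.6 and 20.3 FPKM (log2 fold change −0.33, SE 0.14), and its gene lies 0.588 Mb from Tet2, in the window described below. The apical water channel Aqp2 did overlap: it was at 375, 775 and 371 FPKM in WT, where WT 2 stood far above the others, and 429, 240 and 184 FPKM in Tet2-/- kidneys. The epithelial sodium channel subunit Scnn1b was at 14.5, 11.7 and 14.3 FPKM and 14.8, 12.7 and 16.7 FPKM, and the groups overlapped. The median of the list moved to −0.13 with the adipocyte covariate, under which 0 of the 17 genes, beside 2.42% of all genes, were lower at an unadjusted p under 0.05 in edgeR, and to −0.08 without WT 2 and WT 3. DESeq2 had called 1 of the 17.

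Genes that accumulate organic osmolytes in the salty inner medulla were added as a list of 7 after the values had been seen. Their median log2 fold change was −0.52, and 1 was lower without overlap and 3 at an unadjusted p under 0.05. The median was −0.23 without WT 2, −0.76 without Tet2-/- 2, −0.14 without WT 2 and WT 3 and −0.20 with the adipocyte covariate. Akr1b3, the aldose reductase that makes sorbitol, was at 33.1, 90.7 and 52.9 FPKM in WT and 18.1, 17.96 and 9.69 FPKM in Tet2-/- kidneys (log2 fold change −1.87, SE 0.39, adjusted p = 0.224), and the groups did not overlap. The betaine transporter Slc6a12 was at 2.21, 4.21 and 3.97 FPKM against 2.11, 2.01 and 1.51 FPKM (log2 fold change −0.80, SE 0.27), and WT 1 was level with Tet2-/- 1 and Tet2-/- 2. The myo-inositol transporter Slc5a3 was at 23.9, 20.8 and 28.9 FPKM against 14.8, 20.98 and 12.5 FPKM (log2 fold change −0.52, SE 0.22), and Tet2-/- 2 lay within the WT range. The urea transporter gene Slc14a2, a marker of the inner medulla, showed no such order, with 32.3, 22.7 and 19.6 FPKM in WT and 27.9, 25.2 and 25.7 FPKM in Tet2-/- kidneys. Nfat5, the factor that answers high salt, was at 7.45, 10.96 and 7.11 FPKM and 7.29, 6.14 and 5.93 FPKM and overlapped.

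The S3 segment of the proximal tubule went the other way. Over its 14 genes the median log2 fold change was 0.36, 4 were higher without overlap and 5 had an unadjusted p under 0.05, with 0 lower by either count. DESeq2 called 0 of the 14. Slc22a19, an organic anion transporter, was at 82.3, 62.2 and 88.2 FPKM in WT and 145, 150 and 104 FPKM in Tet2-/- kidneys (log2 fold change 0.86, SE 0.19, adjusted p = 0.224). Napsa, an aspartic protease, was at 2183, 2036 and 1946 FPKM against 3799, 3032 and 2601 FPKM (log2 fold change 0.70, SE 0.19, adjusted p = 0.264). Acy3, an aminoacylase, was at 1757, 2362 and 1727 FPKM against 2744, 2625 and 2328 FPKM (log2 fold change 0.49, SE 0.19). In these 3 genes all Tet2-/- libraries exceeded all WT libraries on the normalized counts. In FPKM this held for Slc22a19 and Napsa, while the highest WT value of Acy3 (2362) lay above its lowest Tet2-/- value (2328). Slc22a7 was at 52.2, 191 and 201 FPKM in WT, with WT 1 far below the rest, and at 360, 307 and 180 FPKM in Tet2-/- kidneys, and its groups overlapped. The median of the S3 list stayed between 0.29 and 0.43 when any 1 library was left out, was 0.48 with the adipocyte covariate and was 0.38 with the length trend taken out.

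Male-biased kidney genes, many of which androgens maintain in the proximal tubule, had a median of 0.25 over 18 genes, with 4 higher without overlap, 4 with an unadjusted p under 0.05 and 0 lower. Of the 18, 8 had a negative log2 fold change, and the median was 0.12 without Tet2-/- 2 and 0.42 without WT 3. DESeq2 called 0 of them at its fold limit. The list shares 2 genes, Cyp7b1 and Slc7a13, with the S3 list. Cyp4a12a, a fatty acid hydroxylase of male kidneys, was at 102, 82.7 and 98.9 FPKM in WT and 131, 161 and 143 FPKM in Tet2-/- kidneys (log2 fold change 0.71, SE 0.14, adjusted p = 0.212). Its near copy Cyp4a12b was at 5.25, 4.72 and 5.73 FPKM against 7.15, 7.0 and 8.65 FPKM (log2 fold change 0.63, SE 0.15), and the 2 genes may share reads. Kap, the androgen-regulated kidney protein and one of the most abundant transcripts, was at 31262, 49842 and 30634 FPKM against 49745, 49651 and 48048 FPKM (log2 fold change 0.49, SE 0.27), higher without overlap on the normalized counts although WT 2 was level with Tet2-/- 1 and 2 in FPKM. Other male-biased genes did not follow: Cyp2j13 was at 93.9, 79.3 and 86.2 FPKM in WT and 44.3, 68.5 and 83.1 FPKM in Tet2-/- kidneys. Of 8 female-biased genes tested, 1 was lower without overlap: Abcc3, an efflux transporter of conjugates, at 1.35, 1.13 and 1.102 FPKM against 0.459, 0.406 and 0.414 FPKM (log2 fold change −1.39, SE 0.18, adjusted p = 0.181; DESeq2 adjusted p = 2.01e-11). Its 3 Tet2-/- values lay close together and well below the 3 WT values.

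Other segments gave fewer differences. No gene of the 21 of S1 and S2, the 6 of the thin limb or the 19 of intercalated cells differed without overlap or reached an unadjusted p under 0.05 in edgeR, and DESeq2 called 0 of them. Their medians were −0.21, −0.01 and 0.14, and with any 1 library left out they ran from −0.47 to 0.08, from −0.19 to 0.13 and from −0.05 to 0.24, so none of the 3 kept its sign. The sodium-glucose cotransporter Slc5a2 of S1 was at 54.3, 95.8 and 159 FPKM in WT and 92.9, 45.4 and 106 FPKM in Tet2-/- kidneys. The endocytic receptor Lrp2 was at 89.6, 55.95 and 106 FPKM against 53.4, 79.7 and 76.4 FPKM. Both show a spread within a genotype as wide as the span between genotypes. The same held for the thick ascending limb (−0.28 to 0.24) and the distal convoluted and connecting tubule (−0.45 to 0.05). In the thick ascending limb (15 genes, median −0.14), Umod, uromodulin of the urine, was at 1472, 642 and 1584 FPKM in WT and 891, 1470 and 807 FPKM in Tet2-/- kidneys, lowest in WT 2. The furosemide-sensitive cotransporter Slc12a1 was likewise lowest in WT 2, at 194, 82.1 and 224 FPKM against 157, 152 and 106 FPKM. In the distal convoluted and connecting tubule (17 genes, median −0.23), Emx1, a transcription factor, was the 1 gene without overlap, at 24.7, 21.5 and 23.8 FPKM against 30.1, 26.1 and 26.2 FPKM (log2 fold change 0.33, SE 0.11). The thiazide-sensitive cotransporter Slc12a3 was at 88.5, 56.2 and 103 FPKM and 71.2, 66.3 and 63.7 FPKM and overlapped. Podocyte genes (18, median −0.27) included 3 that were lower without overlap and 1 with an unadjusted p under 0.05, among them Col4a4, a collagen of the glomerular basement membrane, at 18.6, 22.7 and 23.5 FPKM against 12.3, 17.04 and 15.2 FPKM (log2 fold change −0.45, SE 0.16). Many podocyte transcripts are long. With the length trend taken out, 1 was lower and 1 higher without overlap, 0 had an unadjusted p under 0.05 and the median was −0.15.

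In the endothelium the median over 22 genes was −0.33, with 2 lower without overlap, 5 lower at an unadjusted p under 0.05 and 0 higher, and DESeq2 called 2. Plat, tissue plasminogen activator, was at 13.9, 55.2 and 19.1 FPKM in WT and 5.09, 6.21 and 5.05 FPKM in Tet2-/- kidneys (log2 fold change −2.34, SE 0.49, adjusted p = 0.224). Every WT value stood well above every Tet2-/- value, and WT 2 was far above the rest. Emcn, endomucin of capillaries and veins, was at 34.8, 62.6 and 21.7 FPKM against 12.1, 19.8 and 16.7 FPKM (log2 fold change −1.20, SE 0.37), and its gene lies 3.88 Mb from Tet2, in the same window. The general endothelial marker Pecam1 was at 11.3, 16.7 and 7.296 FPKM and 5.297, 7.92 and 6.78 FPKM, with WT 3 inside the Tet2-/- range. Kdr, the VEGF receptor, was at 3.64, 2.52 and 1.57 FPKM and 1.32, 2.95 and 1.999 FPKM. With the adipocyte covariate the endothelial median was −0.92 and 9 of 22 genes had an unadjusted p under 0.05 in the lower direction. Without WT 2 and WT 3 the median was −0.54, and with 1 library left out it ran from −0.56 (without WT 3) to −0.12 (without Tet2-/- 1).

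Among stromal and adjoining cells, the 17 genes of mesangium, smooth muscle, pericytes and renin cells had a median of 0.00. Ren1, renin, was at 17.7, 24.8 and 31.1 FPKM in WT and 78.4, 14.4 and 57.7 FPKM in Tet2-/- kidneys, high in Tet2-/- 1 and Tet2-/- 3 and lowest of all in Tet2-/- 2. The 20 fibroblast and matrix genes had a median of 0.04, and Postn, periostin, was lower without overlap at 1.24, 2.01 and 0.932 FPKM against 0.42, 0.447 and 0.326 FPKM (log2 fold change −1.72, SE 0.32, adjusted p = 0.206), while Col1a1 was at 1.58, 4.42 and 0.726 FPKM and 1.696, 4.48 and 3.17 FPKM and overlapped. The 6 mesothelial genes tested had a median of −0.76, which ran from −1.45 to −0.46 with 1 library left out, and 5 had a negative log2 fold change. Of the 6, only Krt19, a keratin that urothelium and collecting duct also express, was lower without overlap at 4.72, 12.7 and 10.1 FPKM against 3.29, 1.29 and 1.46 FPKM (log2 fold change −2.11, SE 0.47). Upk3b (−1.63) and Msln (−1.40) were lower with overlap, and Gpm6a (0.39) was higher. Peripheral nerve genes (8 tested, median −0.35) included 5 that were lower without overlap and 2 with an unadjusted p under 0.05, and DESeq2 called 0. Mbp, myelin basic protein, was at 2.08, 3.36 and 2.299 FPKM against 1.48, 1.34 and 0.967 FPKM (log2 fold change −0.94, SE 0.24).

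Immune and blood cell genes gave few differences. No gene of 20 macrophage and monocyte genes (median 0.12) or 17 genes of MHC class II presentation (median −0.06) passed either count in edgeR, and DESeq2 called 0. Csf1r, the receptor that keeps macrophages alive, was at 21.1, 17.2 and 19.2 FPKM in WT and 30.9, 23.0 and 18.1 FPKM in Tet2-/- kidneys. The macrophage gene C1qa was at 10.7, 6.32 and 6.11 FPKM and 6.45, 12.7 and 5.91 FPKM. Of 16 lymphocyte genes (median 0.04), 2 were higher and 0 lower without overlap. The B cell gene Cd79a was at 0.138, 0.264 and 0.117 FPKM and 0.283, 0.231 and 0.225 FPKM and overlapped. Of 13 neutrophil genes only 5 were tested, with a median of 0.60 and S100a9 at 1.36, 0.146 and 1.03 FPKM and 0.759, 1.43 and 1.07 FPKM. All 5 had a positive log2 fold change and 1 was higher without overlap. Their median was 0.31 without Tet2-/- 2, 1.10 without WT 1 and 0.05 without WT 2 and WT 3. Red blood cell genes (8, median −0.04) were lowest in WT 1, which lay below all 3 Tet2-/- libraries in 7 of 8. The haemoglobin gene Hba-a1 was at 14.7, 77.5 and 51.01 FPKM in WT and 61.9, 27.1 and 48.7 FPKM in Tet2-/- kidneys.

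The adipose signal belonged to WT 2 and WT 3. Of 14 adipocyte genes 12 were tested, with a median log2 fold change of −3.22 in which 8 had an unadjusted p under 0.05 but only 2 did not overlap. The FPKM of the list summed to 70.7, 161 and 342 in WT 1, 2 and 3 and to 50.9, 86.5 and 67.1 in Tet2-/- 1, 2 and 3. Adipoq, the fat hormone adiponectin, was at 0.167, 3.01 and 15.6 FPKM in WT and 0.196, 0 and 0 FPKM in Tet2-/- kidneys. Cfd, adipsin, was at 0.955, 31.2 and 90.2 FPKM against 1.44, 0.04 and 0 FPKM. WT 1 was close to Tet2-/- 1 in both and above Tet2-/- 2 and 3, and WT 3 was the highest. Fabp4, which capillaries also express, overlapped at 58.1, 94.9 and 150 FPKM and 36.4, 72.2 and 54.9 FPKM. Brown fat genes had the same 2 libraries apart: Ucp1, the uncoupling protein that defines brown fat, was at 0.028, 4.32 and 4.49 FPKM in WT and 0.082, 0.037 and 0.052 FPKM in Tet2-/- kidneys. Cidea, a lipid droplet protein, was at 0.039, 7.12 and 14.3 FPKM against 0.277, 0.049 and 0.009 FPKM. Cox8b, a respiratory chain subunit of brown fat and muscle, was at 0.874, 10.01 and 16.1 FPKM against 0.335, 0.12 and 0.118 FPKM, and WT 1 also exceeded the Tet2-/- libraries there. The 6 brown fat genes tested had a median of −5.29. The adipocyte median became 0.01 and the brown fat median 0.02 without WT 2 and WT 3, so these differences were carried by those 2 libraries.

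By a rule of at least 1 FPKM in both WT 2 and WT 3 and at least 4 times the highest of the other 4 libraries, 10 genes marked the signal: Adig, Adipoq, Cfd, Cidea, Cidec, Cox8b, Hp, Krt20, Mrap and Ucp1. Of these, 7 were on the 2 fat lists. Hp, haptoglobin, is made by liver and fat and was at 0.546, 4.04 and 7.39 FPKM in WT and 0.379, 0.149 and 0.115 FPKM in Tet2-/- kidneys. Krt20 is a urothelial gene, which met the rule although its WT 1 value exceeded all Tet2-/- values. The rule itself set WT 2 and WT 3 apart, so their place in these 10 genes is no finding.

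**Figure D3:**
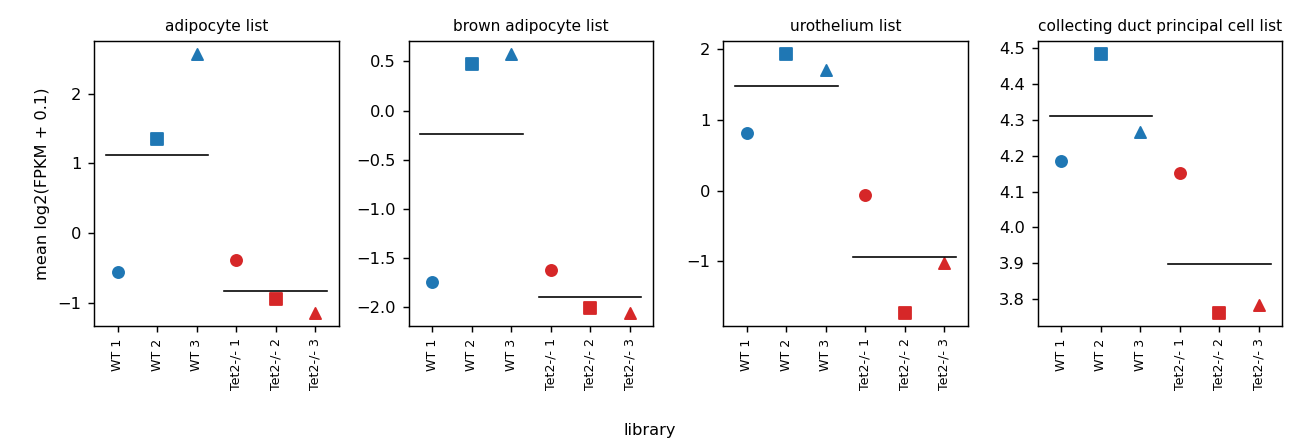
Mean log2(FPKM + 0.1) of 4 marker lists in each library (WT blue, Tet2-/- red, black line the mean of a group, each panel with its own axis). WT 1 sits with the Tet2-/- libraries in both fat lists but above them in the urothelial list, and Tet2-/- 1 sits close to WT 1 in the principal cell list.

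In the TGF-beta and BMP pathway, whose ligands act through paired receptors and SMAD proteins, 10 of 24 genes were lower without overlap, 7 of 24 had an unadjusted p under 0.05, 0 were higher and the median was −0.23. DESeq2 called 0 of the 24. The receptor Tgfbr2 was at 10.3, 13.7 and 11.5 FPKM in WT and 5.62, 7.65 and 7.88 FPKM in Tet2-/- kidneys (log2 fold change −0.65, SE 0.17, adjusted p = 0.264). The BMP receptor Bmpr1a was at 7.38, 8.902 and 10.7 FPKM against 6.02, 6.06 and 5.32 FPKM (log2 fold change −0.54, SE 0.15). The co-receptor Tgfbr3 was at 4.47, 7.65 and 4.48 FPKM against 4.004, 2.75 and 2.42 FPKM (log2 fold change −0.77, SE 0.27). All 3 receptors were lower in every Tet2-/- library, and the signal carrier Smad3 followed by a smaller step, at 4.93, 5.15 and 6.16 FPKM against 4.44, 4.53 and 4.32 FPKM. These transcripts are long, and with the length trend described below taken out, 5 of 24 were lower without overlap, 3 had an unadjusted p under 0.05 and the median was −0.10, beside 0.06 for all genes.

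In the Wnt pathway, 9 of 26 genes were lower without overlap, 7 of 26 had an unadjusted p under 0.05, 1 was higher by both counts (Wnt11, at 0.373, 0.421 and 0.292 FPKM against 0.609, 0.728 and 0.619 FPKM, named after its values were seen) and the median was −0.25. DESeq2 called 2 lower. The ligand Wnt9b, which the collecting duct lineage makes, was at 1.74, 9.43 and 2.82 FPKM in WT and 0.914, 0.604 and 0.897 FPKM in Tet2-/- kidneys (log2 fold change −2.45, SE 0.61, adjusted p = 0.242). Wnt4, a ligand of nephron formation and the medulla, was at 1.002, 4.08 and 1.53 FPKM against 0.755, 0.349 and 0.291 FPKM (log2 fold change −2.17, SE 0.59, adjusted p = 0.264). WT 2 was by far the highest for both ligands, and every Tet2-/- library lay below every WT library. Axin2, a common target and brake of the pathway, was at 0.554, 1.09 and 0.421 FPKM against 0.347, 0.313 and 0.196 FPKM (log2 fold change −1.19, SE 0.40). With the length trend taken out, 5 of 26 were lower without overlap and the median was −0.10. With the adipocyte covariate 0 of the 26, beside 2.42% of all genes, were lower at an unadjusted p under 0.05 in edgeR, and the median was −0.13.

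In Notch signalling (17 genes, median 0.05) 4 were lower and 1 higher without overlap, and with the length trend taken out 2 were lower and 3 higher and the median was 0.15. Among the 4 was the nuclear partner Rbpj at 3.02, 2.77 and 3.25 FPKM in WT and 2.36, 2.55 and 2.09 FPKM in Tet2-/- kidneys (log2 fold change −0.28, SE 0.13). In insulin, PI3K and mTOR signalling (24 genes, median −0.14, which was 0.06 with the length trend taken out) 2 were lower without overlap and 5 had an unadjusted p under 0.05 in the lower direction, including the regulatory subunit Pik3r1 at 7.16, 6.46 and 6.32 FPKM against 4.47, 5.44 and 5.14 FPKM. Hypoxia genes went both ways (15 genes, 3 lower and 3 higher without overlap). Hif1a, the oxygen-sensitive factor itself, was at 13.9, 21.4 and 17.6 FPKM in WT and 9.03, 9.34 and 7.31 FPKM in Tet2-/- kidneys (log2 fold change −0.95, SE 0.18, adjusted p = 0.206). Its target Vegfa lay on the other side, at 65.9, 59.8 and 54.1 FPKM against 66.9, 78.5 and 76.7 FPKM (log2 fold change 0.40, SE 0.13).

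Vasoactive and transport genes gave single differences rather than a shift of a whole list. Agt, angiotensinogen, was at 27.5, 30.6 and 26.1 FPKM in WT and 44.1, 37.8 and 36.05 FPKM in Tet2-/- kidneys (log2 fold change 0.58, SE 0.12, adjusted p = 0.206), higher in all 3 Tet2-/- libraries, whereas the converting enzyme Ace was at 41.7, 42.6 and 57.7 FPKM and 54.1, 56.5 and 50.6 FPKM and overlapped. Ptgs2, the inducible cyclooxygenase found in the macula densa and in medullary interstitial cells, was at 0.975, 2.595 and 0.651 FPKM against 0.363, 0.192 and 0.104 FPKM (log2 fold change −2.61, SE 0.63, adjusted p = 0.239). The 20 genes of that list had a median of −0.15, with 2 higher and 2 lower without overlap. Slc22a2, the organic cation transporter of the proximal tubule, was at 175, 172 and 169 FPKM against 248, 239 and 202 FPKM (log2 fold change 0.51, SE 0.13, adjusted p = 0.242). The efflux pump Abcc4 was at 3.33, 8.79 and 4.33 FPKM against 2.11, 1.28 and 1.14 FPKM (log2 fold change −1.78, SE 0.40, adjusted p = 0.224). Drug and ion transporters as a list (21 genes) had a median of −0.14, also with 2 in each direction.

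In metabolism, lipogenesis and triglyceride storage (22 genes, median −0.15) had 5 lower and 1 higher without overlap, and 5 lower at an unadjusted p under 0.05. The desaturase Scd2 was at 12.7, 19.6 and 11.9 FPKM in WT and 6.61, 6.18 and 5.87 FPKM in Tet2-/- kidneys (log2 fold change −1.16, SE 0.19, adjusted p = 0.206). Srebf1, which drives fatty acid synthesis genes, was at 9.02, 10.1 and 9.72 FPKM against 6.39, 6.098 and 7.44 FPKM (log2 fold change −0.44, SE 0.12). Both were lower in each Tet2-/- library than in each WT library, WT 1 without the fat signal included. Fat tissue expresses lipogenic genes too, and with the adipocyte covariate 1 of 22 genes had an unadjusted p under 0.05 in each direction. In all, 9 of the 22 had a positive log2 fold change, and with the length trend taken out 2 were higher and 3 lower without overlap and the median was −0.05. Fatty acid oxidation and PPARA targets (27 genes, median 0.18) had 5 higher and 0 lower without overlap, and 4 with an unadjusted p under 0.05, while DESeq2 called 0. Cyp4a10, a PPARA target, was at 80.7, 49.9 and 67.6 FPKM against 154, 88.7 and 80.5 FPKM (log2 fold change 0.79, SE 0.28). The thioesterase Acot2 was at 8.22, 7.77 and 7.78 FPKM against 12.9, 8.99 and 11.3 FPKM (log2 fold change 0.57, SE 0.15). Ppara itself was at 10.9, 4.94 and 12.1 FPKM and 7.28, 8.07 and 7.27 FPKM and overlapped.

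Cholesterol genes (24, median −0.17) had 1 higher and 2 lower without overlap. Of 35 amino acid catabolism genes (median 0.04), 4 were higher and 0 lower without overlap, among them Cbs, which makes cystathionine, at 108, 109 and 116 FPKM against 132, 125 and 140 FPKM. In one-carbon and creatine metabolism (18 genes, median 0.01), Gamt, the last enzyme of creatine synthesis, was at 22.1, 24.2 and 18.6 FPKM against 32.7, 28.3 and 31.1 FPKM (log2 fold change 0.60, SE 0.13, adjusted p = 0.224). Ftcd, a folate enzyme of histidine breakdown, lay on the other side at 6.05, 6.41 and 5.48 FPKM against 3.31, 2.36 and 3.77 FPKM (log2 fold change −0.83, SE 0.19, adjusted p = 0.238). Genes of fructose use, glycolysis and gluconeogenesis (30, median 0.12) had 4 higher without overlap and 1 lower, which was Akr1b3. NRF2 targets and glutathione genes (23, median 0.03) went both ways, with 3 higher and 4 lower. Gss, glutathione synthetase, was at 240, 243 and 200 FPKM against 322, 298 and 290 FPKM (log2 fold change 0.51, SE 0.13). Gsta4, a glutathione transferase for lipid aldehydes, was at 15.8, 22.1 and 21.7 FPKM against 11.5, 10.9 and 10.6 FPKM (log2 fold change −0.77, SE 0.16, adjusted p = 0.224).

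Of the ATF4 and endoplasmic reticulum stress genes (20, median 0.25), 16 had a positive log2 fold change, 2 were higher and 1 lower without overlap, an unadjusted p under 0.05 was reached by 3 in the higher and 2 in the lower direction, and the median was 0.077 to 0.32 with 1 library left out. They held Asns, asparagine synthetase, higher on the normalized counts at 2.55, 3.37 and 1.64 FPKM in WT and 4.99, 3.35 and 7.03 FPKM in Tet2-/- kidneys (log2 fold change 1.12, SE 0.35), and Psat1, of serine synthesis, lower at 9.21, 20.02 and 17.3 FPKM against 6.95, 2.88 and 3.98 FPKM (log2 fold change −1.67, SE 0.39). Interferon-stimulated genes (25, median 0.12) had 2 higher and 1 lower without overlap, the latter Ifit2 at 2.97, 4.05 and 2.79 FPKM against 1.86, 2.03 and 1.64 FPKM (log2 fold change −0.74, SE 0.18). Of 22 cytokine and chemokine genes (median 0.13), Cxcl1, which attracts neutrophils, was higher at 10.04, 9.64 and 3.43 FPKM against 17.5, 12.4 and 11.02 FPKM and Ccl8 lower at 1.21, 1.63 and 1.19 FPKM against 0.29, 0.662 and 0.189 FPKM. The injury gene Havcr1 was at 12.8, 7.63 and 15.3 FPKM in WT and 1.55, 20.9 and 10.1 FPKM in Tet2-/- kidneys and spread widely in both, and Lcn2 was at 2.47, 4.24 and 2.597 FPKM and 2.38, 3.33 and 1.19 FPKM. Complement genes (17) had a median of −0.04. Dbp, an output gene of the circadian clock, was at 75.2, 89.8 and 71.5 FPKM against 129, 104 and 94.8 FPKM (log2 fold change 0.56, SE 0.15, adjusted p = 0.264), and 1 of the 20 clock genes each was higher and lower without overlap.

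Cell cycle genes were measured at low levels, and those without overlap lay on the higher side. Of 24 genes 8 were higher without overlap, 8 had an unadjusted p under 0.05, 0 were lower and the median was 0.51. DESeq2 called 2. Ccna2, cyclin A, was at 2.38, 2.35 and 1.63 FPKM in WT and 3.3, 2.85 and 2.21 FPKM in Tet2-/- kidneys (log2 fold change 0.48, SE 0.21). The proliferation antigen Mki67 was at 0.133, 0.189 and 0.065 FPKM against 0.169, 0.434 and 0.288 FPKM (log2 fold change 1.30, SE 0.47), highest in Tet2-/- 2 and with Tet2-/- 1 inside the WT range. Cdk1, the mitotic kinase, was at 0.164, 0.25 and 0.09 FPKM against 0.225, 0.468 and 0.326 FPKM (log2 fold change 1.12, SE 0.44). In FPKM the groups overlapped in all 3. Pcna, of the replication fork, also overlapped, at 15.9, 12.01 and 13.9 FPKM and 10.5, 12.4 and 12.8 FPKM. The median stayed between 0.37 and 0.78 with any 1 library left out. With the adipocyte covariate it was 0.36, and 0 of the 24, beside 1.31% of all genes, were higher at an unadjusted p under 0.05 in edgeR.

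Of 25 genes of DNA methylation and demethylation only Tet2 differed without overlap on the normalized counts, and the median was 0.03. In FPKM, Tet3 and Dnmt1 did not overlap either, both lower in Tet2-/- kidneys. Tet3, the other TET enzyme expressed in these kidneys, was at 1.89, 2.23 and 2.17 FPKM in WT and 1.77, 1.78 and 1.74 FPKM in Tet2-/- kidneys (log2 fold change −0.16, SE 0.12, which was 0.10 with the length trend taken out). Tet1 was at 0.089, 0.065 and 0.114 FPKM and 0.083, 0.08 and 0.094 FPKM, too low to read a direction. Dnmt1, which copies methylation after replication, was at 2.91, 2.64 and 2.74 FPKM and 2.58, 2.45 and 2.46 FPKM. Dnmt3a, which sets it anew, was at 2.96, 3.47 and 3.798 FPKM and 3.35, 3.84 and 3.56 FPKM. Kidney transcription factors (27, median 0.08) had 3 higher and 0 lower without overlap. Hnf4a, a factor of the proximal tubule, was at 164, 124 and 172 FPKM in WT and 117, 163 and 153 FPKM in Tet2-/- kidneys, and the groups overlapped.

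Small differences spread over many genes followed transcript length. With the genes tested cut into 5 equal classes by the length of the counted transcript, the median log2 fold change was 0.14 in the shortest (44 to 1485 bases) and 0.07, 0.00, −0.06 and −0.15 in the next 4, the last holding transcripts of 4556 to 101359 bases. Genes lower without overlap made up 5.07% of the shortest class and 19.4% of the longest, and genes higher without overlap 12.6% and 2.98%. Single libraries differed in the same measure: the median deviation from the mean of the 6 libraries in the longest class was 0.05, 0.00 and 0.15 in WT 1, 2 and 3 and −0.11, −0.02 and −0.08 in Tet2-/- 1, 2 and 3 on the log2 scale, so WT 3 deviated the most and Tet2-/- 2 was near WT 2. When each library's trend on length was taken out, the medians of the 5 classes lay between 0.05 and 0.07. RNA integrity of these libraries is not given in the sources used here, and its part was not tested.

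**Figure D4:**
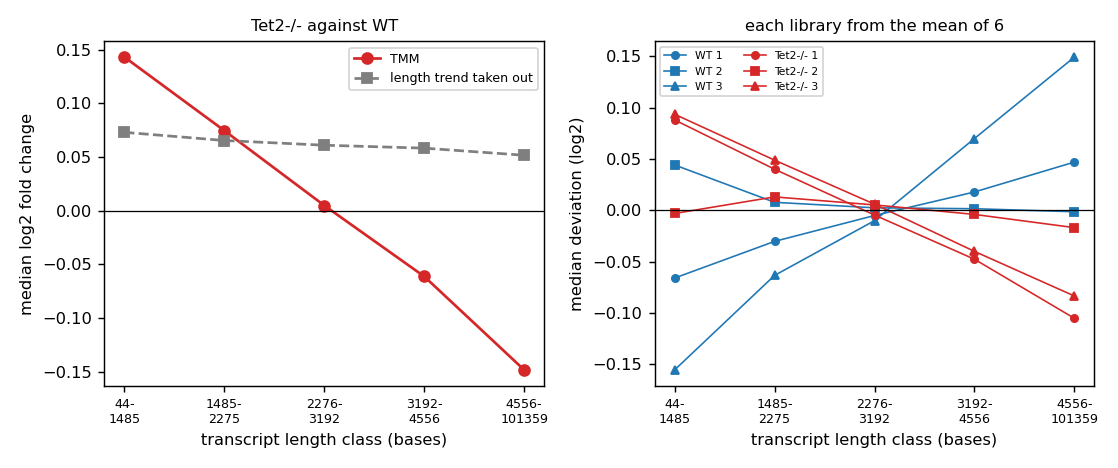
Left, median log2 fold change in 5 classes of transcript length under TMM scaling (red) and with the length trend taken out (grey). Right, median log2 deviation of each library from the mean of 6 in the same classes. The red line runs from 0.14 to −0.15, and WT 3 and Tet2-/- 1 and 3 deviate in opposite directions while WT 2 and Tet2-/- 2 stay near 0.

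Some lists hold mostly short or mostly long transcripts. Nuclear genes of oxidative phosphorylation (74, median 0.24) had 14 higher and 0 lower without overlap, among them Ndufa10 of complex I at 145, 161 and 150 FPKM in WT and 176, 188 and 181 FPKM in Tet2-/- kidneys (log2 fold change 0.35, SE 0.11). Mitochondrial ribosomal protein genes (77, median 0.19) had 17 higher and 0 lower. An unadjusted p under 0.05 was reached by 5 genes of each list. With the length trend taken out both medians were 0.15, beside 0.06 for all genes, while the genes higher without overlap numbered 22 and 23, beside 13.3% of all genes, and those with an unadjusted p under 0.05 numbered 7 and 11, beside 6.98%. Cytosolic ribosomal protein genes other than Rpl34 (81, median 0.19) had 0 higher and 1 lower, and DESeq2 called 0. At the other end, 30 chromatin regulators with long transcripts (median −0.07) had 5 lower and 0 higher without overlap, such as Kmt2c, a histone methyltransferase, at 2.09, 1.92 and 2.34 FPKM against 1.45, 1.62 and 1.49 FPKM (log2 fold change −0.39, SE 0.12). With the length trend taken out this list turned to a median of 0.18 with 10 higher and 1 lower without overlap, beside 13.3% and 6.78% of all genes, so its direction depended on that choice.

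The largest differences at a mean of at least 1 FPKM were taken among 1182 genes with an unadjusted p under 0.05 and no overlap, of which 764 were lower and 418 higher in Tet2-/- kidneys. Apart from the fat genes Cox8b, Retn and Hp and the urothelial gene Ivl, the 12 most lowered were led by Cldn11, a tight junction claudin, at 1.34, 8.78 and 1.44 FPKM in WT and 0.079, 0.082 and 0.091 FPKM in Tet2-/- kidneys (log2 fold change −5.42, SE 0.88, adjusted p = 0.206). Aldh1a3, which makes retinoic acid, was at 6.54, 34.5 and 7.59 FPKM against 0.942, 0.246 and 0.086 FPKM (log2 fold change −5.22, SE 1.03, adjusted p = 0.206). Vcan, the matrix proteoglycan versican, was at 0.749, 3.56 and 0.756 FPKM against 0.046, 0.099 and 0.029 FPKM (log2 fold change −4.74, SE 0.80, adjusted p = 0.206). WT 2 was several times above WT 1 and WT 3 in all 3, yet each of the other WT libraries also exceeded every Tet2-/- library. Adgrf1, an adhesion receptor, was at 1.37, 6.39 and 2.095 FPKM against 0.362, 0.128 and 0.052 FPKM, and Gcnt3, a mucin glycosyltransferase, at 0.656, 2.71 and 1.05 FPKM against 0.199, 0.039 and 0.022 FPKM. Actg2, smooth muscle gamma actin, was at 0.709, 3.23 and 0.332 FPKM against 0.118, 0.145 and 0.049 FPKM. Celf3 and Sprr2a3 completed the 12, with log2 fold changes of −4.01 and −3.64; Sprr2a3, of the cornified envelope, has near copies with which it may share reads. Without WT 2 the log2 fold change of Cldn11 was −3.95, and it then passed edgeR's adjusted threshold.

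Among the higher genes, Etnppl, which breaks down phosphoethanolamine, came first at 1.07, 0.504 and 0.755 FPKM in WT and 4.19, 4.06 and 4.74 FPKM in Tet2-/- kidneys (log2 fold change 2.57, SE 0.28, adjusted p = 0.1004; DESeq2 adjusted p = 9.2e-16), with tight values in both groups. Tex21 was at 0.287, 0.541 and 0.10 FPKM against 2.51, 1.56 and 1.01 FPKM (log2 fold change 2.52, SE 0.60). Adm2, a vasodilator peptide of the adrenomedullin family, was at 0.437, 0.301 and 0.335 FPKM against 1.798, 0.843 and 2.08 FPKM (log2 fold change 2.23, SE 0.40, adjusted p = 0.206). Cabp2, a calcium-binding protein, was at 0.818, 1.696 and 1.53 FPKM against 4.53, 3.27 and 3.58 FPKM (log2 fold change 1.57, SE 0.31, adjusted p = 0.206). None of these genes reached 5 FPKM in any library, and the groups stood clear of each other in each. Higher levels were reached by Reep6, an endoplasmic reticulum protein, at 24.1, 22.9 and 16.8 FPKM against 63.6, 32.4 and 38.9 FPKM (log2 fold change 1.17, SE 0.26, adjusted p = 0.224). Akr1c18, a steroid dehydrogenase that inactivates progesterone, was at 25.05, 27.2 and 28.8 FPKM against 162, 55.4 and 27.3 FPKM (log2 fold change 1.67, SE 0.56), where Tet2-/- 1 was far above and Tet2-/- 3 exceeded WT on the normalized counts but not in FPKM. Adamts8, Ifitm7, Ache, Sult5a1, Ube2c and Cpne7 completed the 12, with log2 fold changes from 1.17 to 2.02.

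Etnppl lies close to Tet2, and the neighbourhood of Tet2 on chromosome 3 was therefore looked at after the values had been seen. Within 5 Mb of Tet2, 60 genes were tested, of which 9 (15.0%) had an unadjusted p under 0.05 in the higher and 9 (15.0%) in the lower direction, and 8 (13.3%) had an adjusted p under 0.05 in DESeq2 beside 3.24% of all genes. Leaving out Tet2, Rpl34 and Rpl34-ps1, these were 6 (10.5%), 9 (15.8%) and 6 (10.5%) of 57 genes. Without Etnppl as well, which had prompted the look, they were 5 (8.93%), 9 (16.1%) and 5 (8.93%) of 56 genes. From 5 to 20 Mb, the shares of 119 genes were 1.68%, 10.9% and 5.04%, and on all other chromosomes 3.56%, 8.09% and 3.16%. The 6 genes that DESeq2 passed were Rrh, Etnppl, Manba, Emcn, Lamtor3 and Mttp. Coordinates are those of the deposited files on mm9. Etnppl (chr3:130320366-130338668) lies 2.84 Mb from Tet2 on the side of lower coordinates. Manba (chr3:135148575-135234367), a lysosomal mannosidase, was at 10.4, 9.91 and 12.9 FPKM in WT and 18.1, 14.6 and 20.9 FPKM in Tet2-/- kidneys (log2 fold change 0.79, SE 0.17, adjusted p = 0.224). Lamtor3 (chr3:137581519-137591726), a scaffold of mTORC1 and MAPK signalling on lysosomes, was at 8.95, 8.88 and 7.81 FPKM against 13.6, 12.1 and 15.8 FPKM (log2 fold change 0.79, SE 0.15, adjusted p = 0.206). Mttp (chr3:137752819-137806352), which loads lipid onto apolipoprotein B, was at 4.97, 3.26 and 5.45 FPKM against 1.81, 1.72 and 1.72 FPKM (log2 fold change −1.29, SE 0.20, adjusted p = 0.206). In all 3 the groups stood apart with little spread within a group, 2 higher and 1 lower. Rrh was at 0.054, 0.084 and 0 FPKM against 0.646, 0.465 and 0.491 FPKM. A chromosome segment around the targeted gene can differ between knockout and WT mice by descent as well as by the deletion, and the genotypes at these loci were not measured, so the 2 cannot be told apart here.

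**Figure D5:**
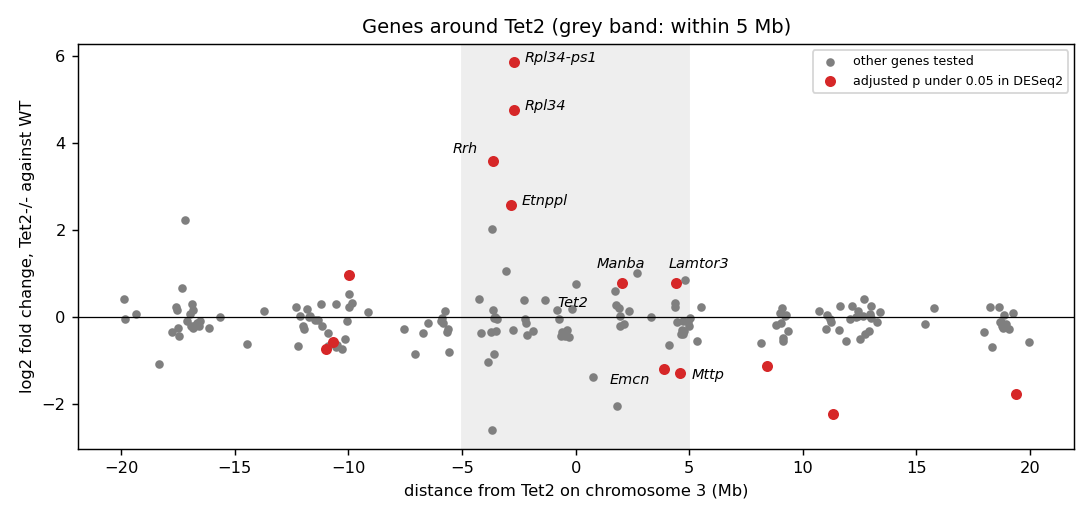
Log2 fold change of genes tested against their distance from Tet2 on chromosome 3, within 20 Mb, with genes at a DESeq2 adjusted p under 0.05 in red and the 5 Mb window in grey. Red points gather in the window, 6 of them besides Rpl34 and Rpl34-ps1, and lie on both sides of 0.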

How the data were processed

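According to the study's methods and the labels, the authors used STAR for alignment to mm9 and HOMER for counting per RefSeq transcript, and deposited both unnormalized expected counts and FPKM. Versions are not given in the sources used here. The deposited counts rise in steps of 0.5 (38.7% of values at baseline are not whole) and were rounded, although whole counts had been assumed. Each symbol was represented by its transcript with the highest total over 12 libraries (34600 transcripts, 24421 symbols). Genes kept by filterByExpr were tested on the 6 baseline libraries with edgeR 4.0.16 (TMM, quasi-likelihood F test, Benjamini-Hochberg adjustment) in R 4.3.3. Alternatives used DESeq2 1.42.0, limma 3.58.1 on log2(FPKM + 1) and log2(FPKM + 0.1), and the mean level of the adipocyte list as a covariate. The length trend was a smooth curve of each library's log2 deviations on transcript length, entered as an offset. In counts simulated for 16086 genes, 200 of them altered by 2 on the log2 scale, the test recovered 194 and called 4 others. The altered genes were drawn from those with higher counts, and the simulated spread was a smooth trend on expression without differences from gene to gene. No fat signal or length trend was simulated. The recovery is a check of the code and does not give the share of such changes the test would find in these libraries. The plots used Python 3.11.15 with matplotlib 3.10.9.

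The comparison and the 65 gene lists, matched by symbol, were chosen with earlier results of these data known, and 1 list was added after values were seen, so lists carry no test. The text names Tet1 to Tet3, the marked members of each list, up to 4 members of a list with the lowest unadjusted p, no overlap and a mean of at least 1 FPKM in a genotype, and the 12 largest differences in each direction, with Rpl34 and its copies left out. Some genes that this rule names are not reported here. Classes by CG number of the promoter are not reported, because 77.5% of genes tested had a promoter in the table, which is not complete, and at least 80% were needed. The edgeR p values set the genotype difference against the spread between 3 libraries a genotype, moderated over all genes. With 1 library a mouse, that spread does not separate the mouse from how its kidney was taken or its library made.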

Additional observations from a re-analysis of the deposited data

How the results depend on the processing

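Genes called lower numbered 297 with DESeq2, 1 with no filter, 1 with all 12 libraries, 2 with the replicate block and 0 to 7 with 1 library left out (7 without WT 1, 4 without WT 2, 1 without Tet2-/- 1), beside 0. Genes called higher numbered 23 with DESeq2 and 1 with the adipocyte covariate, beside 2, and 2 to 3 with 1 library left out. Genes higher at an unadjusted p under 0.05 numbered 256 with library sizes alone, 332 with all 12 libraries, 239 and 252 with limma on log2(FPKM + 1) and log2(FPKM + 0.1), 210 with the adipocyte covariate, 1123 with the length trend taken out and 320 to 1607 with 1 library left out (320 without Tet2-/- 1, 365 without WT 3, 1607 without WT 2). Genes lower numbered 389 with the adipocyte covariate, 718 without WT 2 and WT 3, 878 with the length trend taken out and 836 to 1838 with 1 library left out (836 without Tet2-/- 3). Genes higher without overlap numbered 536 with library sizes alone, 2134 with the length trend taken out and 1823 to 3532 with 1 library left out, and genes lower 1090 with the length trend taken out and 2168 to 3454 with 1 library left out, where fewer libraries overlap less by construction. No scaling moved the median of all genes by over 0.1.

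The urothelial median was −1.47 with limma on log2(FPKM + 1), −1.69 with the adipocyte covariate and −3.61 to −2.08 with 1 library left out. The adipocyte median was −2.41 at a mean FPKM of at least 1, −0.84 and −1.83 with limma, 0.17 with the covariate, 0.011 without WT 2 and WT 3 and −3.77 to −1.96 with 1 library left out (−1.96 without WT 3), and the brown fat median was −1.02 and −2.28 with limma, −0.31 with the covariate, 0.021 without WT 2 and WT 3 and −5.82 to −4.21 with 1 library left out. The shortest transcripts had a median of 0.039 and 0.056 with limma and 0.090 to 0.21 with 1 library left out, and the longest −0.22 with library sizes alone, 0.052 with the length trend taken out and −0.19 to −0.078 with 1 library left out. Of 3106 values of 174 named genes, 3006 kept their direction and side of the threshold. Since almost no gene passed the threshold in the main fit, keeping its side was nearly given. A log2 fold change could also shrink far and still count as kept. Adipoq, for one, went from −6.80 to −1.10 with the adipocyte covariate. The count is therefore no measure of how stable the sizes were. Reversed log2 fold changes were, with the adipocyte covariate, Adig 0.84, Cidea 0.42, Cidec 0.79, Hspa4l 0.037 and Slc14a2 −0.20; without WT 2 and WT 3, Cidea 1.44, Cidec 0.67, Hspa4l 0.28, Slc14a2 −0.20, Slc6a6 −0.038, Tet3 0.0013 and Ucp1 1.05; with 1 library left out, Slc6a6 −0.084 (without WT 2) to 0.32 and Tet1 −0.16 (without WT 2) to 0.25; for Tet1, −0.037 with library sizes alone, −0.0060 with all 12 libraries, −0.0046 and −0.021 with limma and −0.051 without Tet2-/- 3; and Tet3 0.10 with the length trend taken out. The cause of these shifts was not tested. The alternative on CG observed against expected was not run.

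The genotypes share replicate numbers, but same-numbered libraries did not deviate together (correlations of −0.19, −0.17 and 0.07), so they share only a number. The replicate block left 413 higher and 1079 lower genes with p under 0.05 before adjustment.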

Other observations

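Further lists were read in the same way. Among 17 genes of ammonia and acid-base metabolism (median log2 fold change −0.10), Slc4a7, a sodium-bicarbonate cotransporter, was lower at 1.11, 2.23 and 1.45 FPKM in WT and 0.911, 0.91 and 0.587 FPKM in the libraries labelled Tet2-/- (log2 fold change −0.91, SE 0.29). Among 17 genes of vitamin D, phosphate and calcium (median 0.10), 3 were higher and 1 lower without overlap, and Slc20a1, a phosphate transporter, was among the higher at 15.7, 18.3 and 10.3 FPKM against 26.01, 19.1 and 18.9 FPKM (log2 fold change 0.62, SE 0.22). Of 15 heat shock genes (median 0.17), the mitochondrial co-chaperonin Hspe1 was higher at 128, 140 and 136 FPKM against 150, 176 and 152 FPKM. Of 20 immediate early genes (median −0.12), Klf6 was lower at 6.67, 8.02 and 4.85 FPKM against 4.44, 4.26 and 3.32 FPKM and Myc higher at 1.64, 1.496 and 1.66 FPKM against 3.78, 1.93 and 1.85 FPKM, its highest value in Tet2-/- 1. None of 18 glucocorticoid and fasting genes (median −0.06) differed without overlap, and 1 had an unadjusted p under 0.05 in edgeR. Of 18 tubular injury genes (median −0.17), 1 was higher and 2 lower without overlap, and Anxa2, annexin A2, was among the lower at 41.1, 63.9 and 41.9 FPKM against 35.4, 35.5 and 27.7 FPKM. Of 37 proteasome genes (median 0.12), 7 were higher and 2 lower without overlap, and of 28 replication-dependent histone genes (median 0.22), 3 were higher and 1 lower.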
